A study of Mus musculus with 13 samples.

Results

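The genes described here are 10 genes that heart fibroblasts express as they become active and lay down scar: Postn, Cilp, Cthrc1, Tnc, Fn1, Fap, Ptn, Meox1, Sparc and Ddr2. They were picked by name and taken by symbol from the count files, which hold 53278 symbols, and all 10 had enough reads to be tested among the 15690 genes that passed the filter on low counts. The data are RNA-seq libraries of 13 mouse hearts. All animals were labelled as male, wild-type (WT) C57Bl6 mice whose hearts were taken at 17 weeks of age, after surgery at 12 weeks. Sham hearts (n = 3) had a sham operation and no injection, and IR hearts (n = 3) had ischaemia and reperfusion, a temporary stop of the blood supply to heart muscle, and no injection. IR virus hearts (n = 3) had IR and a control virus. IR edit hearts (n = 4) had IR and a working editing system against CaMKIIδ, a calcium-dependent kinase encoded by Camk2d, whose oxidation the study set out to remove by base editing. The labels give neither the kind and dose of virus nor the cell type in which the editor was active. They describe whole hearts without saying that each library came from its own mouse, so p-values measure the spread between these libraries.

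When heart muscle dies, resting fibroblasts divide, move into the damaged region and secrete matrix that replaces the lost muscle. Part of that matrix is structural, such as fibronectin. Another part is made of matricellular proteins, which modulate how cells attach to the matrix rather than bear load, and periostin, encoded by Postn, is the one most used to mark the activated state. Transforming growth factor beta (TGF-beta) is the best known signal that drives this change, and mechanical load adds to it. Whole-heart RNA mixes all cell types, so fewer cells of a type and less RNA per cell cannot be told apart in any of these values.

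Library depth ran from 20634820 to 27265276 counts, and the 10 genes together took between 0.0379% and 0.128% of a library. Levels below are CPM, read counts divided by the TMM-scaled library size. The 10 cardiomyocyte markers summed to between 54670 and 72400 CPM and the 15 resting fibroblast markers to between 1763 and 2637 CPM, with every marker of both lists detected in every heart. Adipocyte markers (7 genes) summed to at most 3.99 CPM and T and B cell markers (9 genes) to at most 3.83 CPM. Camk2d lay between 197 and 280 CPM and passed in none of the 7 comparisons. On the first principal component, with 27.5% of the variance, IR edit replicates 2 and 4 stood apart at 34.0 and 45.1, while the other 11 hearts lay between -26.5 and 10.2.

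All 10 genes are protein-coding in GENCODE release M21. In mm10 (GRCm38), Postn lies at chr3:54361109-54391037 on the plus strand, Cilp at chr9:65265180-65280605 on the plus strand and Cthrc1 at chr15:39076932-39087121 on the plus strand. Tnc lies at chr4:63959785-64047015, Fn1 at chr1:71585520-71653200, Fap at chr2:62500943-62574075 and Ptn at chr6:36714929-36810220, all on the minus strand. Meox1 lies at chr11:101877510-101894374, Sparc at chr11:55394500-55423183 and Ddr2 at chr1:169972307-170110762, again on the minus strand.

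Promoters are shown for 4 genes with unlike patterns in the IR edit hearts below. Postn and Cilp were high in IR edit replicates 2 and 4. Tnc and Ptn were lower in IR edit than in IR virus on average, and of the 4 genes only Ptn passed in that comparison. The sequences come from the RefSeq promoter table for GRCm38.p6, which matched 6 of the 10 genes, and run 5′ to 3′ along the gene's strand up to the start site. That of Ptn stops where the GENCODE gene begins. Postn is chr3:54360857-54361106 (plus), Cilp chr9:65264930-65265179 (plus), Tnc chr4:64047016-64047265 (minus) and Ptn chr6:36810221-36810429 (minus). None of the 4 windows overlaps an exon of any gene in GENCODE M21. Capitals mark a match to 1 of the 5 motifs searched.
Postn: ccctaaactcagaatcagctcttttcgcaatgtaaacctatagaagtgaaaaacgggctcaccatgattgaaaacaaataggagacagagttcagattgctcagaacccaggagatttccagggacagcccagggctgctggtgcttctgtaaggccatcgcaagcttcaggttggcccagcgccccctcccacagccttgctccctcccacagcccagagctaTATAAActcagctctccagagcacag
Cilp: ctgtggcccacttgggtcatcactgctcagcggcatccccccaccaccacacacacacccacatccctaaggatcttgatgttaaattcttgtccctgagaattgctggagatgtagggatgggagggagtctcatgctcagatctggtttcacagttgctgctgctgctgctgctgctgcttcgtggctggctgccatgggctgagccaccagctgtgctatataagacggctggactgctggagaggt
Tnc: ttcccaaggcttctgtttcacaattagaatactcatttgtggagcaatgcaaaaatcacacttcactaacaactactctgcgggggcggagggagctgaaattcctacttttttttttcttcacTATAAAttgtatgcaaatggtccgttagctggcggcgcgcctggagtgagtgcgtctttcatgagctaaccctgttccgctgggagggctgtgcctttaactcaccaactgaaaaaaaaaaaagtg
Ptn: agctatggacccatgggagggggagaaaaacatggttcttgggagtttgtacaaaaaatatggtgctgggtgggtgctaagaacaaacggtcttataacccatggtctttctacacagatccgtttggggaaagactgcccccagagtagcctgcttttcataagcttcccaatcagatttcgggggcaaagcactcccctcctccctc
Both strands were searched for TEAD (CATTCC), AP-1 (TGANTCA), SMAD (CAGAC), homeobox (TAATTA) and the TATA box (TATAAA). Postn held TATAAA 26 to 21 bases before its start, and Tnc held these letters 126 to 121 bases before. Cilp and Ptn held no match to any of the 5. Over the 8 start sites of the 6 matched genes, 4 windows held TATAAA, 3 held CAGAC and 0 held the other motifs. The windows of Tnc overlap and share the same TATAAA, and that of Ddr2 lay on the opposite strand. Among the 32851 mouse windows of 250 bases in the table the shares were 12.4% for TATAAA, 42.2% for CAGAC, 12.6% for CATTCC, 6.75% for TGANTCA and 4.84% for TAATTA. A match is a description of these letters only, and 8 windows are too few to set against those shares.

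Injury without the editor came first. In the IR and IR virus hearts 8 of the 10 genes lay above Sham, and Fap and Ddr2 lay at the Sham level. Cilp showed the widest difference, at 8.08-fold for the mean of the IR and IR virus groups over Sham, followed by Cthrc1, Ptn and Postn. In the edgeR fit of all 13 hearts, with a Benjamini-Hochberg adjustment over all genes, Ptn was the 1 member past the threshold of 0.05, where 0.0127% of all genes were called higher. The spread in that fit includes the IR edit hearts, whose SD of Postn was 172 CPM, against 59.0 CPM in IR and 47.3 CPM in IR virus. With edgeR on the 9 Sham, IR and IR virus hearts alone, 8 of the 10 members were called higher, against 1.72% of all genes. All 10 members had a positive log2 fold change, with a median of 1.15 beside 0.0044 over all genes tested.

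**Figure D1:**
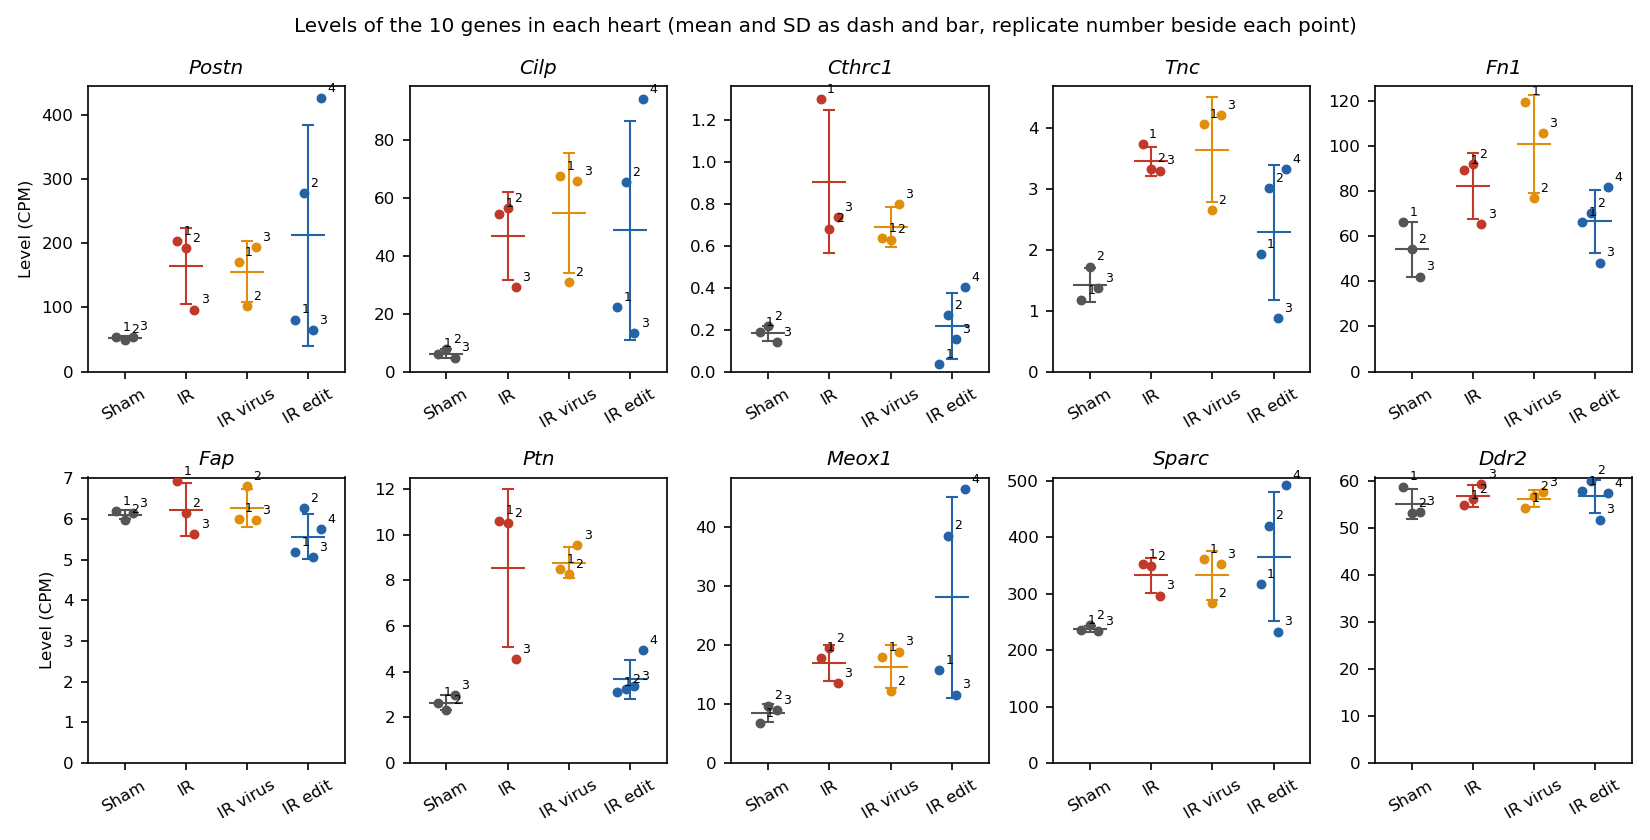
Levels of the 10 genes in CPM (vertical axes, each from 0) in every heart of the 4 groups. Points are hearts with their replicate number, and the dash and bar are the group's mean and SD. Fap and Ddr2 lie level across the groups, and the IR edit hearts spread widely for Postn, Cilp, Meox1 and Sparc.

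Among the matricellular genes, Postn lay at 54.0, 49.8 and 54.6 CPM in Sham replicates 1 to 3. In IR it lay at 203.9, 192.8 and 96.7 CPM, and in IR virus at 170.6, 102.6 and 193.6 CPM. All 6 injured hearts stood above all 3 Sham hearts, and IR replicate 3 and IR virus replicate 2 were the lowest of their groups. For the mean of IR and IR virus against Sham, Postn had a log2 fold change of 1.60 ± 0.49 (SE) and did not pass in edgeR's fit of all hearts (adjusted p = 0.192), but it passed in the fit of the 9 hearts (adjusted p = 0.00302).

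Cilp, cartilage intermediate layer protein, a matrix protein that binds TGF-beta, lay in the Sham hearts at 6.19, 7.75 and 4.83 CPM. The IR hearts lay at 54.6, 56.5 and 29.3 CPM and the IR virus hearts at 67.7, 31.0 and 66.0 CPM. Neither injured group overlapped Sham, and the same 2 injured hearts as for Postn were lowest. The log2 fold change for the mean of both groups was 3.01 ± 0.56 (SE), and edgeR's adjusted p was 0.0511 in the fit of all hearts and 0.000411 in that of the 9.

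Tnc encodes tenascin C, a large matricellular protein that appears at wound edges. It lay at 1.17, 1.72 and 1.37 CPM in Sham, at 3.72, 3.33 and 3.29 CPM in IR, and at 4.06, 2.65 and 4.21 CPM in IR virus. No injured heart overlapped the Sham hearts. The log2 fold change was 1.32 ± 0.31 (SE), and edgeR's adjusted p was 0.0871 in the fit of all hearts and 0.00342 in that of the 9. Sparc, a collagen-binding matricellular protein that fibroblasts and vessel cells also make at rest, lay at 235, 244 and 233 CPM in Sham. It lay at 352, 349 and 296 CPM in IR and at 362, 283 and 352 CPM in IR virus. Neither injured group overlapped Sham for Sparc, with a log2 fold change of 0.48 ± 0.17 (SE) and adjusted p of 0.243 and 0.00970 in the 2 edgeR fits.

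Cthrc1 encodes a secreted protein with a short collagen-like stretch that marks a strongly matrix-producing fibroblast state. Its reads were few: 5, 5 and 3 counts in the Sham hearts, 30, 16 and 17 in IR, and 16, 15 and 19 in IR virus. In CPM this was 0.182 ± 0.0372 in Sham, 0.906 ± 0.341 in IR and 0.689 ± 0.0961 in IR virus (SD, n = 3 each). The lowest injured heart had 15 counts and the highest Sham heart 5. The log2 fold change was 2.08 ± 0.45 (SE), and edgeR's adjusted p was 0.0828 in the fit of all hearts and 0.00862 in that of the 9.

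Fn1 encodes fibronectin, the structural glycoprotein on which collagen is assembled. Sham hearts lay at 66.4, 54.3 and 42.1 CPM, IR hearts at 89.4, 91.8 and 65.2 CPM, and IR virus hearts at 119.6, 77.0 and 105.7 CPM. Here IR replicate 3 lay below Sham replicate 1, so IR and Sham overlapped, while IR virus and Sham did not. The log2 fold change for the mean of both groups was 0.74 ± 0.18 (SE), and edgeR's adjusted p was 0.0973 in the fit of all hearts and 0.0283 in that of the 9.

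Ptn encodes pleiotrophin, a secreted heparin-binding growth factor. It lay at 2.64, 2.33 and 2.98 CPM in Sham, at 10.6, 10.5 and 4.55 CPM in IR, and at 8.48, 8.27 and 9.56 CPM in IR virus. IR replicate 3 was closest to Sham, and the IR virus hearts lay close together. Ptn rose by a log2 fold change of 1.71 ± 0.25 (SE), 3.27-fold, with an adjusted p of 0.0234 in edgeR's fit of all hearts. Against Sham its log2 fold change was 1.69 ± 0.27 in IR (adjusted p = 0.0793) and 1.73 ± 0.27 in IR virus (adjusted p = 0.0607) in the same fit. The call for the mean depended on which hearts entered. It was lost when any 1 of the 3 Sham hearts, IR replicates 1 or 2, or IR virus replicates 1 or 3 was left out, with adjusted p from 0.0511 to 0.114, while the log2 fold change stayed between 1.61 and 1.79 in those fits. Without IR replicate 3 or IR virus replicate 2 the call held (adjusted p = 0.000221 and 0.0349, log2 fold change 1.86 and 1.73).

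Meox1 encodes a homeobox transcription factor that has been tied to fibroblast activation. It lay at 6.83, 9.77 and 8.94 CPM in Sham, at 17.9, 19.5 and 13.6 CPM in IR, and at 17.9, 12.2 and 18.9 CPM in IR virus. Neither injured group overlapped Sham. The log2 fold change was 0.97 ± 0.36 (SE), and edgeR's adjusted p was 0.258 in the fit of all hearts and 0.00719 in that of the 9.

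The cell-surface members were level. Fap encodes fibroblast activation protein, a membrane protease, and Ddr2 a receptor tyrosine kinase for collagen that resting fibroblasts also carry. Fap lay between 5.63 and 6.93 CPM in all 9 Sham, IR and IR virus hearts, with a log2 fold change of 0.03 ± 0.11 (SE; edgeR, adjusted p = 0.919). Ddr2 lay between 53.1 and 59.3 CPM in the same hearts, with a log2 fold change of 0.03 ± 0.064 (SE) and an adjusted p of 0.847. Neither gene passed in the fit of the 9 hearts (adjusted p = 0.943 and 0.887).

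Taken separately, neither injured group had a member past the threshold in edgeR's fit of all hearts. In IR against Sham 0 of 10 members were called, where 0.00637% of all genes were called higher, and at an unadjusted p under 0.05 there were 8 members and 1307 genes (8.33% of all). In IR virus against Sham 0 of 10 were called, again with 0.00637% of all genes called higher, and 8 members and 2411 genes (15.4% of all) had an unadjusted p under 0.05. DESeq2 called 2 members in IR, Cilp and Ptn, where it called 0.275% of all genes in either direction, and 4 in IR virus, Cilp, Tnc, Fn1 and Ptn, against 1.7% of all genes. Fits of only the 2 groups compared called 7 members in IR, against 0.588% of all genes, and 8 in IR virus, against 1.05%. Cilp had a log2 fold change of 2.90 ± 0.59 (SE) in IR (adjusted p = 0.188) and 3.13 ± 0.59 in IR virus (adjusted p = 0.0781) in the edgeR fit of all hearts. Fn1 had 0.60 ± 0.20 (adjusted p = 0.450) and 0.89 ± 0.20 (adjusted p = 0.121). Both groups were set against the same Sham hearts.

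The control virus itself was compared with IR. No member was called between IR virus and IR, 0% of all genes were called by edgeR, and DESeq2 called 0 members and 0% of all genes. The members' adjusted p ran from 0.962 to 0.9996, and 0 members against 603 genes had an unadjusted p under 0.05. The 10 log2 fold changes had a median of 0.0035. With 3 hearts a group, values that did not pass are not shown to be equal.

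**Figure D2:**
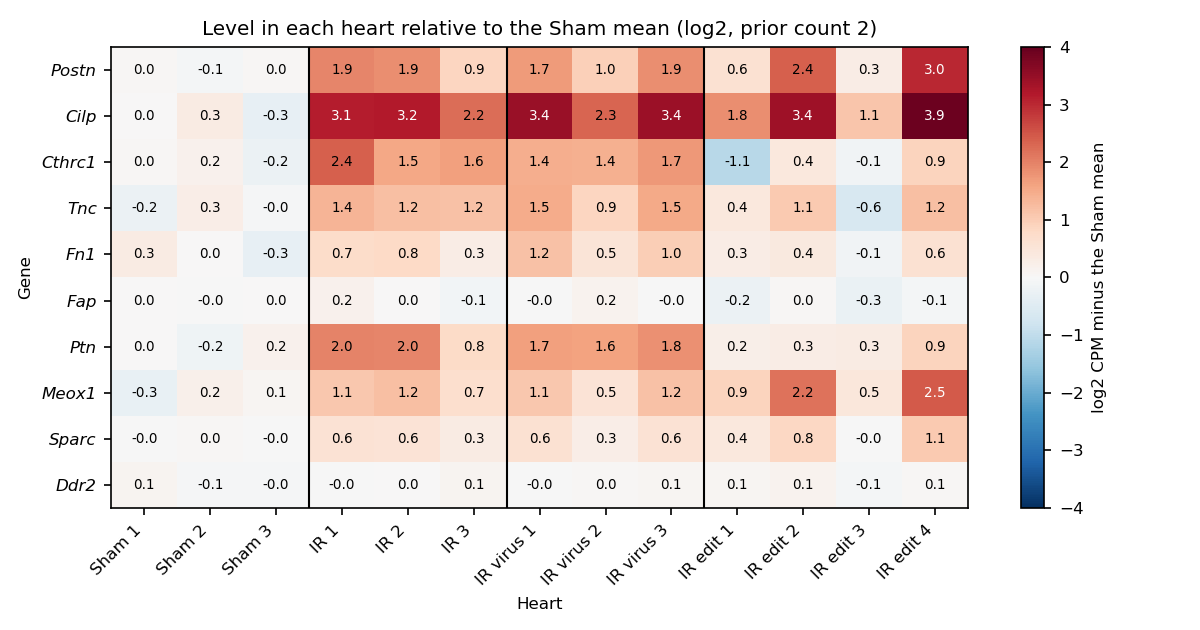
Level of each gene (rows) in each heart (columns) as log2 CPM minus the mean of the Sham hearts, with a prior count of 2, written in each cell and shown by colour. IR edit replicate 4 has the darkest cells for Postn, Cilp and Meox1, with paler cells for Cthrc1, Ptn and Fn1.

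The hearts given the editing system were next set against Sham, 5 weeks after injury, with the question of which scar genes were still above the uninjured level. Postn, Cilp, Meox1 and Sparc rose, and the other 6 did not pass. These 4 of 10 members stood against 4.61% of all genes called higher in the same edgeR fit. The 4 hearts differed strongly among themselves: replicates 2 and 4 were the highest for all 4 genes, replicate 1 lay between, and replicate 3 was the lowest.

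Postn lay at 81.0, 278, 64.9 and 426 CPM in IR edit replicates 1 to 4, a mean of 213 ± 172 CPM (SD, n = 4) against 52.8 ± 2.59 CPM in Sham (SD, n = 3). All 4 hearts lay above the 3 Sham hearts, and replicates 2 and 4 above every other heart of the study. Postn had a log2 fold change of 2.01 ± 0.52 (SE; edgeR, adjusted p = 0.0297). Cilp lay at 22.3, 65.5, 13.3 and 94.3 CPM, a mean of 48.8 ± 37.9 CPM (SD, n = 4), all above Sham. Its log2 fold change was 2.96 ± 0.57 (SE), 7.80-fold (edgeR, adjusted p = 0.00787).

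Meox1 lay at 15.8, 38.6, 11.6 and 46.5 CPM, a mean of 28.1 ± 17.1 CPM (SD, n = 4) against 8.52 ± 1.52 CPM in Sham (SD, n = 3). No IR edit heart overlapped Sham. Meox1 rose by a log2 fold change of 1.73 ± 0.38 (SE; edgeR, adjusted p = 0.0153). Sparc lay at 317, 420, 233 and 493 CPM, and replicate 3 lay within 1 CPM of the lowest Sham heart. Its log2 fold change was 0.62 ± 0.18 (SE; edgeR, adjusted p = 0.0499), just inside the threshold.

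None of these 4 calls held with IR edit replicates 2 and 4 left out together, a setting chosen after the values were seen. It keeps only IR edit replicates 1 and 3. There 0 of 10 members were called higher, against 0.642% of all genes, a share that was 4.61% with all hearts. Postn then had a log2 fold change of 0.47 (adjusted p = 0.581), Cilp 1.52 (adjusted p = 0.0656), Meox1 0.70 (adjusted p = 0.169) and Sparc 0.21 (adjusted p = 0.612) in the same edgeR fit. With any 1 of the 3 Sham hearts or IR edit replicates 2 or 4 left out, Postn and Sparc lost their calls, with adjusted p of 0.0813 to 0.0875 and 0.102 to 0.144, and Meox1 lost its call without Sham replicate 1 (adjusted p = 0.0599). Cilp kept its call with any 1 Sham or IR edit heart left out. When edgeR was run on these groups alone, 1 member was called, Cilp, against 1.05% of all genes.

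The remaining 6 genes did not pass against Sham in the IR edit hearts. Ptn lay at 3.12, 3.23, 3.36 and 4.94 CPM in IR edit, all above the highest Sham heart at 2.98 CPM but close to it, with a log2 fold change of 0.47 ± 0.27 (SE; edgeR, adjusted p = 0.314). Cthrc1 had 1, 6, 3 and 10 counts, a range that spans the 3 to 5 counts of Sham, with a log2 fold change of 0.22 ± 0.59 and an adjusted p of 0.864. Its sign turned without IR edit replicate 4 (-0.31) and without replicates 2 and 4 (-1.03). Tnc lay at 1.93, 3.002, 0.880 and 3.32 CPM, so that replicate 3 was below all Sham hearts and the other 3 above them. Its log2 fold change was 0.70 ± 0.33 (adjusted p = 0.218), and it passed without IR edit replicate 3 (0.94, adjusted p = 0.0185). Fn1 lay at 66.1, 70.3, 48.3 and 81.8 CPM and overlapped Sham, with a log2 fold change of 0.30 ± 0.19 (adjusted p = 0.381).

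Fap and Ddr2 were again level. Fap lay between 5.07 and 6.27 CPM in IR edit, with a log2 fold change of -0.13 ± 0.11 (SE; edgeR, adjusted p = 0.530). Ddr2 lay between 51.7 and 60.0 CPM, with a log2 fold change of 0.04 ± 0.069 and an adjusted p of 0.768. The members' median log2 fold change over Sham was 0.55 beside -0.0015 over all genes, with 9 positive and 1 negative.

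**Figure D3:**
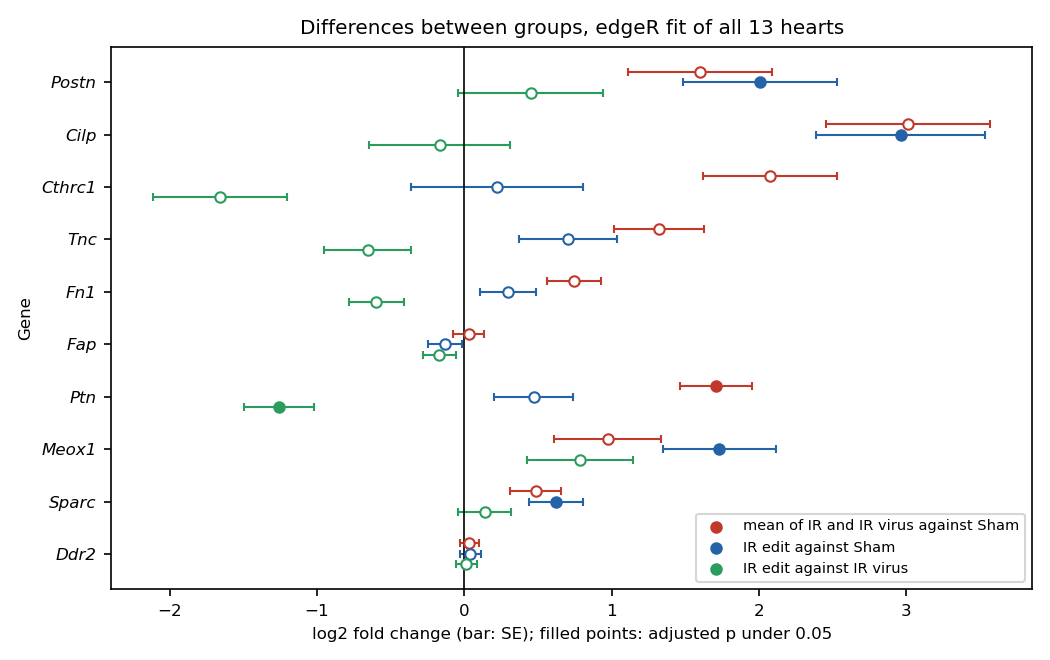
Log2 fold change of each gene with its SE as a bar (horizontal axis) for 3 comparisons in the edgeR fit of all 13 hearts, where filled points have an adjusted p under 0.05. Against IR virus, Ptn is filled at -1.26, and Cthrc1, at -1.66, is not. Postn, Cilp, Meox1 and Sparc are filled for IR edit against Sham.

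IR edit against IR virus sets the working editing system against the control virus, and both groups had IR and an injection. Ptn was the 1 of 10 members that passed, and it was lower, where 1.06% of all genes were called lower. The IR virus hearts lay between 8.27 and 9.56 CPM and the IR edit hearts between 3.12 and 4.94 CPM, so the groups were separated by a clear gap. Ptn fell by 1.26 ± 0.24 (SE) on the log2 scale, 2.39-fold lower, with an adjusted p of 0.0146 from edgeR, and was lower in 4 of 4 hearts. Without IR virus replicate 1 or 3 the adjusted p was 0.0574 or 0.0657. Without IR edit replicates 2 and 4, Ptn and Cthrc1 were called lower, against 0.201% of all genes, so the lower Ptn did not rest on those hearts.

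Cthrc1 lay at 0.216 ± 0.157 CPM in IR edit (SD, n = 4) against 0.689 ± 0.0961 CPM in IR virus (SD, n = 3), without overlap between the hearts. Its log2 fold change was -1.66 ± 0.46 (SE; edgeR, adjusted p = 0.0820) in the fit of all hearts. Fn1 had -0.60 ± 0.19 (adjusted p = 0.134) and Tnc -0.66 ± 0.30 (adjusted p = 0.312). For Fn1 and Tnc the highest IR edit hearts overlapped IR virus replicate 2. Neither passed.

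The genes that were highest in IR edit replicates 2 and 4 did not differ past the threshold from IR virus. Postn had a log2 fold change of 0.45 ± 0.49 (SE, adjusted p = 0.705 from edgeR), Meox1 0.78 ± 0.36 (adjusted p = 0.320) and Cilp -0.17 ± 0.48 (adjusted p = 0.909). For each of the 3, IR edit hearts lay on both sides of the IR virus hearts. The sign of Postn turned without IR edit replicate 4 (-0.13) and, with replicates 2 and 4 left out, Postn lay at -1.09 and Meox1 at -0.25, neither past the threshold. The 10 log2 fold changes had a median of -0.17 beside -0.0077 over all genes, with 4 positive and 6 negative, and 5 members had an unadjusted p under 0.05, as had 15.2% of all genes.

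IR edit against IR used the hearts without an injection. Ptn and Cthrc1 passed, both lower, 2 of 10 members where 0.637% of all genes were called lower. Ptn had a log2 fold change of -1.22 ± 0.24 (SE, adjusted p = 0.0190 from edgeR), and Cthrc1 had -2.05 ± 0.44 (adjusted p = 0.0317). IR replicate 3, at 4.55 CPM of Ptn, lay below IR edit replicate 4 at 4.94 CPM, so for Ptn the groups overlapped, whereas for Cthrc1 the lowest IR heart had 16 counts and the highest IR edit heart 10. Both calls were lost without IR replicate 1, IR replicate 2 or IR edit replicate 2, with adjusted p from 0.0679 to 0.190, and when edgeR was run on these groups alone (0.0690 for Ptn and 0.0959 for Cthrc1). The comparisons with IR virus and with IR share the IR edit hearts.

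The ratio of Postn to Ptn in each heart shows how far the genes came apart. It ran from 18.3 to 21.4 in Sham, from 18.4 to 21.3 in IR and from 12.4 to 20.3 in IR virus. In IR edit replicates 1 to 4 it was 26.0, 86.3, 19.3 and 86.3. Replicates 2 and 4 lay far above every other heart, replicate 1 slightly above, and replicate 3 within the Sham range. The ratio of Cilp to Fn1 ran from 0.0933 to 0.143 in Sham, from 0.403 to 0.624 in the IR and IR virus hearts, and stood at 0.338, 0.931, 0.274 and 1.15 in IR edit replicates 1 to 4. These ratios show unequal change between 2 genes and do not show which of them changed.

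Heart by heart, several members followed Postn. Over the 10 injured hearts the Pearson r of log2 CPM with Postn was 0.946 for Sparc, 0.945 for Cilp and 0.901 for Meox1 (adjusted p = 0.00054 each, 2-sided permutation test with 100000 resamples, Benjamini-Hochberg over 9 relations). Spearman's rho was 0.867, 0.818 and 0.867 (adjusted p = 0.0106, 0.0162 and 0.0106). Without IR edit replicates 3 and 4, the 2 hearts farthest from the median of Postn, r was 0.886, 0.935 and 0.806. Tnc had an r of 0.669 (adjusted p = 0.0396, permutation test) and a rho of 0.564 (adjusted p = 0.174), with r at 0.628 without those hearts.

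Ptn, Cthrc1, Fn1, Fap and Ddr2 had no relation with Postn past the threshold over the same 10 hearts. Their r was 0.289, 0.389, 0.563, 0.451 and 0.328, with adjusted p of 0.417, 0.339, 0.162, 0.288 and 0.396 (permutation test, n = 10), and their rho lay between 0.224 and 0.564 (adjusted p from 0.174 to 0.539). For Ddr2, r turned to -0.117 without the 2 hearts. With each group's mean taken away, so that differences between groups no longer enter, r with Postn was 0.985 for Cilp, 0.983 for Meox1, 0.953 for Sparc, 0.865 for Tnc, 0.817 for Fn1 and 0.772 for Cthrc1, each past the threshold (permutation test, adjusted p from 0.00036 to 0.0102), and 0.611 for Ptn, 0.580 for Fap and 0.326 for Ddr2, which did not pass (adjusted p = 0.0744, 0.0930 and 0.356). By rank, rho after the same step passed for 8 of the 9 genes (permutation test). It was 0.661 for Ptn (adjusted p = 0.0492), 0.745 for Fap (adjusted p = 0.0235) and between 0.745 and 0.915 for the 6 genes whose r passed (adjusted p from 0.00324 to 0.0235). For Ddr2 rho was 0.285 (adjusted p = 0.428). After this step the 2 hearts farthest from the median of Postn were a different pair, IR edit replicates 1 and 3. Without this pair r was 0.801 to 0.985 for those 6 genes, 0.680 for Ptn, 0.365 for Fap and -0.0387 for Ddr2. The permutation after this step moved values freely over all 10 hearts, though taking means away ties the hearts of a group together. The IR edit hearts also spread widest, with an SD of Postn of 172 CPM against 59.0 CPM in IR and 47.3 CPM in IR virus. The p-values with group means taken away may therefore be too small. How far these relations rest on the IR edit hearts was not tested. The share of all genes that follow Postn as closely was not computed, so the relations are not shown to be particular to the members. Whether the relations with and without the group means differ was not tested.

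**Figure D4:**
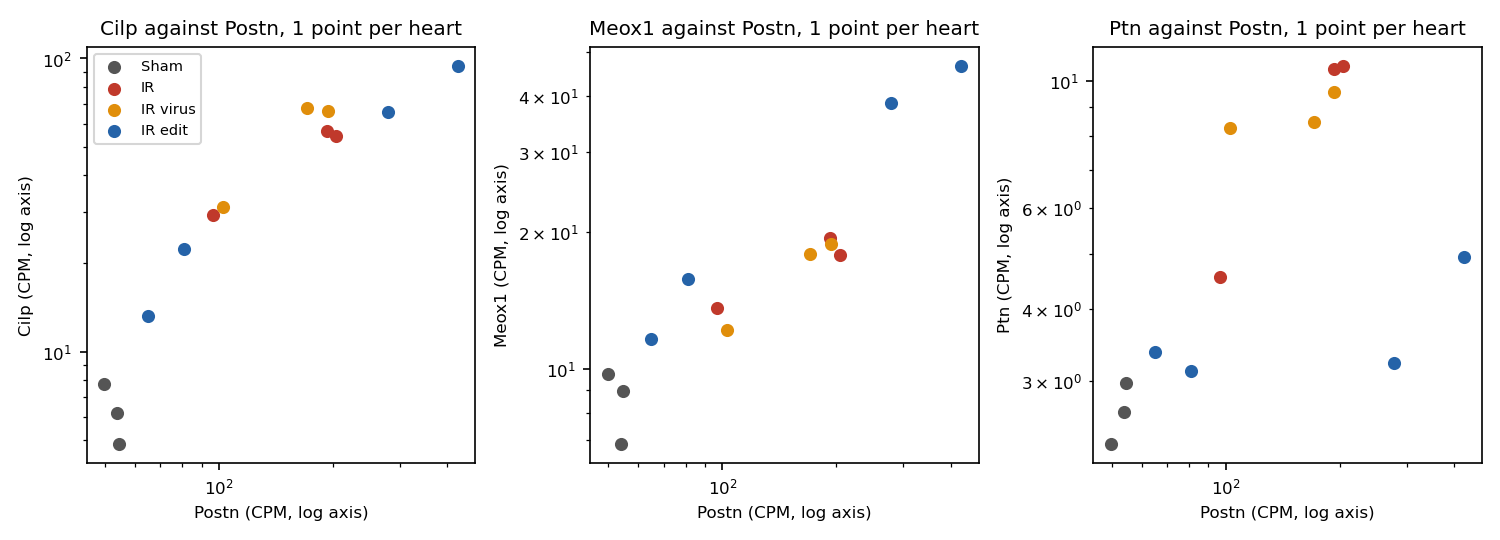
Cilp, Meox1 and Ptn (vertical axes, CPM on a log scale) against Postn (horizontal axis, CPM on a log scale), with 1 point per heart coloured by group. Cilp and Meox1 lie along 1 band, while the IR edit hearts with Postn at 278 and 426 CPM have Ptn at 3.23 and 4.94 CPM.

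Per unit of transcript length (RPKM, CPM divided by the length of the merged GENCODE exons in kilobases) the levels of the members can be ordered. In Sham, Sparc was highest at 62.7 ± 1.55 RPKM (SD, n = 3), followed by Postn at 6.07 ± 0.298, Ddr2 at 5.94 ± 0.343, Fn1 at 4.64 ± 1.04 and Meox1 at 3.82 ± 0.680. Postn and Ddr2 were within each other's spread there, and so were Fn1 and Meox1. Below them came Cilp at 1.47 ± 0.344, Fap at 1.08 ± 0.0194, Ptn at 0.772 ± 0.0954, Tnc at 0.183 ± 0.0359 and Cthrc1 at 0.114 ± 0.0233 RPKM.

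After injury the order shifted. Cilp moved from rank 6 in Sham to rank 3, at 11.01 ± 3.57 RPKM in IR and 12.9 ± 4.87 RPKM in IR virus (SD, n = 3 each), behind Sparc and Postn. Ddr2 moved from rank 3 to rank 6 in both, with its own level at 6.12 ± 0.253 and 6.06 ± 0.193 RPKM. In IR edit the third rank was held by Meox1, at 12.6 ± 7.65 RPKM (SD, n = 4), with Cilp next at 11.5 ± 8.92 RPKM, and the 2 lay within each other's spread. Cthrc1 and Tnc held the 2 lowest ranks in every group.

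Markers of several cell types differed between the hearts, in directions that varied by list. The summed resting fibroblast markers ran from 1763 to 1930 CPM in Sham, 2088 to 2431 CPM in IR and 2305 to 2597 CPM in IR virus, and stood at 2337, 2420, 1993 and 2637 CPM in IR edit replicates 1 to 4. Edit replicate 3, with the lowest Postn of the group, also had the lowest sum, and replicate 4 the highest. The 10 cardiomyocyte markers summed to 64450 to 72400 CPM in Sham, 60120 to 64430 CPM in IR and 63190 to 66880 CPM in IR virus. In IR edit replicates 1 to 4 they stood at 63190, 57730, 66840 and 54670 CPM, the opposite order to Postn. The 9 markers of proliferating cells summed to 14.3 to 32.4 CPM in Sham, 18.4 to 31.0 CPM in the other injured hearts, and 34.3, 54.2, 17.5 and 47.2 CPM in IR edit. The 8 pericyte markers, all detected in every heart, summed to 1591 to 1800 CPM in Sham, 1614 to 1745 CPM in IR and 1541 to 1644 CPM in IR virus. In IR edit replicates 1 to 4 they stood at 1407, 1218, 1457 and 1157 CPM, below every heart of the other groups. A large part of these sums was 1 gene, Abcc9, with means of 668 CPM in Sham, 548 in IR, 546 in IR virus and 385 in IR edit. In IR edit against IR virus, where Ptn fell, 7 of the 8 pericyte markers had negative log2 fold changes, with a median of -0.37, and 6 had an unadjusted p under 0.05, as had 15.2% of all genes, but 0 were called. Unlike the sums, 7 of the 8 were positive for the mean of IR and IR virus against Sham, with a median of 0.20 and 0 called. In IR edit against Sham 4 were positive and 4 negative, with 1 called higher and 2 lower. Of all 15690 genes 723 were called higher there and 534 lower. Of the 8 myofibroblast and smooth muscle markers 7 had negative log2 fold changes for the mean of IR and IR virus against Sham, with a median of -0.20. Of these 8 markers 3 had an unadjusted p under 0.05, as had 14% of all genes, and 0 were called. In IR edit against Sham 7 of the 8 were again negative, with a median of -0.15, and 0 were called. The part of all these marker lists in the members' levels was not tested. All 15 resting fibroblast markers were tested: 12 had positive log2 fold changes for the mean of IR and IR virus against Sham and 0 were called, and in IR edit against Sham 11 were positive and 4 called higher, Gsn, Col15a1, Cd248 and Pdgfra. There 4.61% of all genes were called higher. Without IR edit replicates 2 and 4, 0 of the 15 were called, where 0.642% of all genes were called higher. For the mean of IR and IR virus 11 of the 15 had an unadjusted p under 0.05, as had 14% of all genes.

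Other genes of the scar program were taken from lists chosen for the pathway with earlier results of these data known. The lists are therefore no independent support for the members. Of 42 tested activated fibroblast and scar genes other than the members, 40 had positive log2 fold changes for the mean of IR and IR virus against Sham, with a median of 1.03. In edgeR's fit of all hearts 0.0127% of all genes were called higher, and 1 gene of the list passed. That gene was Thbs4, a thrombospondin of injured tissue, at 4.23, 4.48 and 3.74 CPM in Sham, 25.7, 26.8 and 14.7 CPM in IR and 27.5, 14.4 and 26.9 CPM in IR virus. Thbs4 rose by 2.45 ± 0.32 (SE, adjusted p = 0.0126), and lost the call without any 1 of the 3 Sham hearts (adjusted p from 0.0753 to 0.102). Col8a2, a short-chain collagen, had a log2 fold change of 2.30 ± 0.42 (adjusted p = 0.0504) and Sfrp2, a secreted modulator of Wnt signalling, 2.62 ± 0.48 (adjusted p = 0.0511). IR replicate 3 and IR virus replicate 2 were again the lowest of their groups for Thbs4.

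In IR edit against Sham the same list had 23 genes called higher and 2 lower, with a median of 1.01, and 3 higher and 2 lower without IR edit replicates 2 and 4. Of all 15690 genes 723 (4.61%) were called higher and 534 lower. Without those replicates 102 of 15893 (0.642%) were called higher and 56 lower. Thbs4 was among the higher, with a log2 fold change of 1.76 ± 0.34 (SE, adjusted p = 0.00748 from edgeR), which did not pass without IR edit replicates 2 and 4 (1.20, adjusted p = 0.0778). The 2 lower genes, named after their values were seen, were Lrrc15, a membrane protein of matrix-producing fibroblasts, and Thbs2, another thrombospondin, and both passed with any 1 heart of these groups left out. Against IR virus, 0 of the 42 were called higher and 4 lower, where 1.06% of all genes were called lower, and the median was -0.09. These 4, also named after their values were seen, were Thbs2 (-0.98 ± 0.15, adjusted p = 0.00439), the collagen-binding proteoglycan Fmod (-1.52 ± 0.32, adjusted p = 0.0241), Lrrc15 (-1.03 ± 0.22, adjusted p = 0.0275) and the fibrillar collagen Col11a1 (-1.77 ± 0.42, adjusted p = 0.0411).

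Thbs2 lay between 39.7 and 41.0 CPM in IR virus and at 25.7, 15.2, 24.5 and 16.3 CPM in IR edit replicates 1 to 4, below all Sham hearts, whose lowest was 31.3 CPM. Its call held when any 1 heart was left out and without IR edit replicates 2 and 4. Fmod lay at 22.4, 8.19 and 16.8 CPM in IR virus and between 4.03 and 7.20 CPM in IR edit, near its Sham range of 3.55 to 5.25 CPM. The calls of Fmod, Lrrc15 and Col11a1 were each lost without IR virus replicate 1, IR virus replicate 3 or IR edit replicate 2, those of Lrrc15 and Col11a1 also without another heart of the 2 groups, and the highest adjusted p was 0.148, 0.109 and 0.200.

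The members' close relatives gave 15 tested genes. For the mean of IR and IR virus against Sham 12 were positive, 3 had an unadjusted p under 0.05 and 0 passed, where 14% of all genes had an unadjusted p under 0.05. Cilp2, the paralog of Cilp, lay at 0.604, 0.603 and 0.237 CPM in Sham, between 0.758 and 1.23 CPM in the 6 IR and IR virus hearts, and at 0.260, 0.359, 0.104 and 0.121 CPM in IR edit replicates 1 to 4. Cilp2 had 2 to 8 counts in the IR edit hearts and 18 to 31 in the other injured hearts. It fell by 2.14 ± 0.40 (SE) on the log2 scale against IR virus (adjusted p = 0.0123 from edgeR) and had -2.21 ± 0.40 against IR (adjusted p = 0.0110), while Cilp itself did not pass in either. Without IR virus replicate 1 the adjusted p against IR virus was 0.0826, and without IR replicate 2 that against IR was 0.0748. Mdk, midkine, the paralog of Ptn, had a log2 fold change of 0.73 ± 0.25 for the mean of IR and IR virus against Sham (adjusted p = 0.235) and -0.81 ± 0.26 for IR edit against IR virus (adjusted p = 0.144), neither past the threshold.

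Among 27 tested receptors and ligands of the member proteins, 21 were positive for the mean of IR and IR virus against Sham, 9 had an unadjusted p under 0.05, against 14% of all genes, and 0 passed. Sdc4, syndecan 4, a heparan sulfate proteoglycan to which fibronectin and pleiotrophin bind, had a log2 fold change of 0.40 ± 0.092 (SE, adjusted p = 0.0871 from edgeR). In IR edit against Sham 7 were called higher and 0 lower, where 4.61% of all genes were called higher. Lrp1 and Itga9 were among the 7, at 0.84 ± 0.22 (adjusted p = 0.0276) and 0.71 ± 0.15 (adjusted p = 0.0132) from edgeR. Lrp1 is an endocytic receptor and Itga9 an integrin subunit that binds tenascin C. Against IR virus, where 151 of all 15690 genes were called higher, 2 of the list were. These were the integrin subunits Itgb6 (0.72 ± 0.15, adjusted p = 0.0222) and Itgb3 (0.79 ± 0.18, adjusted p = 0.0344), named after their values were seen. Each lost its call without any 1 of the 3 IR virus hearts, and Itgb3 also without IR edit replicate 1 or 2 (adjusted p up to 0.108 and 0.168).

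TGF-beta signalling had 20 tested genes, of which 17 were positive for the mean of IR and IR virus against Sham, 3 had an unadjusted p under 0.05 and 0 passed. That count is near the share of all genes, 14%. The ligand gene Tgfb3 had a log2 fold change of 0.88 ± 0.20 (SE, adjusted p = 0.0876 from edgeR). In IR edit against Sham Tgfb3 was called higher at 0.90 ± 0.22 (adjusted p = 0.0223), as were Tgfb2 (0.84 ± 0.22, adjusted p = 0.0335) and Skil, a brake on SMAD proteins, and the co-receptor gene Tgfbr3 was called lower. These 3 higher and 1 lower stood beside 723 (4.61%) of all 15690 genes called higher and 534 called lower. Against IR virus, where 2.02% of all genes were called in either direction, the 1 gene called was Skil, higher at 0.77 ± 0.17 (adjusted p = 0.0317). That call was lost without any 1 of the 3 IR virus hearts or IR edit replicates 2 or 4 (adjusted p up to 0.134).

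Fibroblast transcription factors had 26 tested genes. For the mean of IR and IR virus against Sham 22 were positive, 5 had an unadjusted p under 0.05, near the 14% of all genes, and 0 passed, with Runx2 at 1.33 ± 0.26 (SE, adjusted p = 0.0639 from edgeR), Gata6 at -0.44 ± 0.093 (adjusted p = 0.0772) and Tbx15 at 1.72 ± 0.41 (adjusted p = 0.0940). In IR edit against Sham 7 were called higher and 0 lower, including Runx2 (1.01 ± 0.28, adjusted p = 0.0386) and Tbx15 (1.79 ± 0.43, adjusted p = 0.0211), where 4.61% of all genes were called higher. Against IR virus 0 of 26 were called by edgeR, and 6 had an unadjusted p under 0.05, against 15.2% of all genes. Without IR edit replicates 2 and 4, 0 of the transcription factors and 0 of the TGF-beta genes were called against Sham, and 1 of the receptors and ligands was called higher, where 0.642% of all genes were. Lrp1, Itga9, Tgfb2, Tgfb3, Runx2 and Tbx15 each lost the call against Sham in that setting, with adjusted p of 0.372, 0.186, 0.440, 0.329, 0.422 and 0.339, and also when single hearts, Sham hearts among them, were left out.

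The genes outside the list whose log2 CPM followed the mean z-score of the 10 members most closely over the 13 hearts were Comp (r = 0.961), Dse (r = 0.960), Col14a1 (r = 0.959), Ctsk (r = 0.957) and Frzb (r = 0.954). All 13 hearts share the 4 groups, so these values describe both the group differences and the spread within groups. Comp, cartilage oligomeric matrix protein, lay at 4.26 ± 1.16 CPM in Sham, 25.7 ± 10.9 CPM in IR, 33.8 ± 13.1 CPM in IR virus (SD, n = 3 each) and 16.2 ± 14.9 CPM in IR edit (SD, n = 4). With each group's mean taken away, the closest included Col8a1 (r = 0.983), Gdf6 (r = 0.982), E230013L22Rik (r = 0.980) and Igfbp7 (r = 0.977). Col8a1, a short-chain collagen, lay at 59.6, 152, 46.7 and 183 CPM in IR edit replicates 1 to 4, in the same order as Postn, against 31.2 ± 1.64 CPM in Sham (SD, n = 3).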

How the data were processed

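RNA was isolated from whole hearts with the RNeasy Micro Kit and made into libraries with the KAPA mRNA HyperPrep kit, per the labels' protocols. Each deposited table gives the raw counts of 1 heart by gene symbol, and the titles give 4 groups of 3, 3, 3 and 4 hearts. Per the submitters' processing notes the authors aligned to mm10 and counted with tools that include HISAT2 2.1.0, featureCounts 1.6.2, Trimmomatic 0.39 and FastQC 0.11.8. Annotation and strand setting are not given in the sources used, so reads of genes that overlap a member cannot be told apart.

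From the counts, edgeR 4.0.16 in R 4.3.3 fitted 1 mean per group to all 13 libraries (TMM scaling, filterByExpr, quasi-likelihood test, Benjamini-Hochberg over 15690 genes, threshold 0.05, 9 residual and 6.08 prior degrees of freedom, common biological coefficient of variation 0.116). SE is the absolute log2 fold change over the square root of F. All groups share 1 spread. Log2 CPM used a prior count of 2. Total counts of 20634820 to 27265276 limit genes with few reads, Cthrc1 and Cilp2 above all. The pipeline was tested on simulated data. DESeq2 1.42.0, other scaling and filters, fits of the groups compared, the title number as a block and each library left out were alternatives. Gene positions and lengths came from GENCODE M21 (GRCm38) and promoters from RefSeq (GRCm38.p6). Promoters of Cthrc1, Fn1, Fap and Meox1 are not shown.

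The members, lists and tests were chosen with earlier results of these data known. Genes named are the members, Camk2d, up to 3 genes per list with the smallest p for the mean of IR and IR virus against Sham, and the 5 genes most like the members by each measure, of which 1 is not reported here; others are said to be named after their values were seen. Marker lists gave summed CPM per heart, and all others not printed above are left out for length.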

Additional observations from a re-analysis of the deposited data

Results flagged for a closer look

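Ptn in the IR edit group was marked because 1 heart lay far from the others. Replicates 1 to 3 lay at 3.12, 3.23 and 3.36 CPM and replicate 4 at 4.94 CPM. The gap to the nearest heart took 0.864 of the group's range, above the 95% critical value of Dixon's test for 4 samples. Chance marks about 1 in 20 groups, and 10 genes were looked at in this group. Replicate 4 also had the highest Postn, Cilp, Meox1 and Sparc of the study, and its Ptn was below all 3 IR virus hearts.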

How the results depend on the processing

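The number of members called moved with the setting, and so did the share of all genes called in either direction, given here in brackets. Without a filter on low counts edgeR called 8 members in IR (1.87%), in IR virus (2.7%) and in the mean of both (2.94%) against Sham, 6 in IR edit against Sham (6.9%), 6 in IR edit against IR virus (3.18%) and 4 in IR edit against IR (3.19%). In that setting edgeR's adjusted p for Cilp in IR against Sham was 6.6e-124, against 0.188 in the main fit. The log2 fold change was 2.89 and 2.90. Such a p-value is not credible with 3 hearts a group, so the counts without the filter give no support. Fits of only the groups compared called 7 (0.769%), 8 (1.35%) and 8 (2.56%) against Sham, 1 for IR edit over Sham (1.62%) and 0 in IR edit against IR (1.11%). DESeq2's test called 2 (0.275%), 4 (1.7%) and 4 (1.57%), and DESeq2's size factors in edgeR gave 2 for the mean of both (0.166%). With a minimum of 1 CPM in 3 libraries 1 member was called in IR edit against IR (1.58%), since Cthrc1 was then not tested. Leaving out 1 heart gave 0 to 1 members in IR against Sham (0% to 0.0314%) and 0 to 2 for the mean of both (0.00627% to 0.351%). It gave 1 to 5 for IR edit over Sham (3.06% to 15.0%), with the 5 at 15.0%. For IR edit against IR virus it gave 0 to 2 (0.603% to 3.06%), and in IR edit against IR 0 to 2 (0.37% to 3.13%). Without IR edit replicates 2 and 4 together, a setting added after seeing the data, the counts were 0 over Sham (0.994%) and 2 for IR edit against IR virus (0.566%). Apart from the settings that tested fewer hearts or genes, the cause of these shifts was not tested.

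The title numbers showed no clear pairing of the hearts with group means taken away: 18 pairs with the same number had correlations of -0.13 to 0.221 (median 0.0359), and 45 pairs with different numbers -0.194 to 0.211 (median 0.0108). With 3 or 4 hearts a group this description cannot exclude a pairing or shared handling by number. With the number as a replicate block, 3 members were called in IR virus against Sham (1.11% of all genes), 4 for the mean of both (1.15%) and 1 in IR edit against Sham (3.76%), and the signs of Cthrc1 in IR edit against Sham (-0.31) and Postn in IR edit against IR virus (-0.34) turned. IR edit replicate 4 is the 1 heart with its number, so the block takes it out of every comparison.

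Some small log2 fold changes turned. With 1 heart left out, Fap for the mean of both ran from -0.0103 to 0.0649, Cthrc1 in IR edit against Sham from -0.309 to 0.619, and in IR edit against IR virus Postn from -0.128 to 0.752 and Cilp from -0.693 to 0.144. Without IR edit replicates 2 and 4, Ddr2 in IR edit against Sham was -0.0082, Cthrc1 there -1.03, and in IR edit against IR virus Postn was -1.09 and Meox1 -0.25. With group means taken away, the relations of Postn with Cthrc1 (0.772) and Fn1 (0.817) passed, by permutation p-values that may be too small after that step. For Cthrc1 and Cilp2, with 10 counts or fewer in each IR edit heart, depth limits the size of the change that can be stated.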
